A study of Mus musculus with 4 samples.

Results

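The cells described here are heart macrophages that carry messenger RNA of both Spp1 and Gpnmb. They were chosen by a threshold on those 2 genes, and the threshold is part of the measured data. Barcodes were kept with a mitochondrial share under 10%, fewer than 30000 UMIs (unique molecular identifiers, each close to 1 captured mRNA molecule) and more than 500 but fewer than 7000 genes. A kept cell was counted as a C1q-positive macrophage when C1qa, C1qb and C1qc summed to 10 or more UMIs per 10000. It was counted as an Spp1 and Gpnmb cell when it also held 2 or more UMIs of Spp1 and 2 or more of Gpnmb. The rule found 417 cells among 13935 C1q-positive macrophages, 17312 kept cells and 27968 barcodes, or 2.99% of the C1q-positive macrophages and 2.41% of the kept cells.

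The study asked what a DNA-damaging chemotherapy leaves behind in the macrophages of the mouse heart. Adult mice received carboplatin, a platinum drug that crosslinks DNA, by intraperitoneal injection at 45 mg/kg, 2 times a week for 2 weeks, or PBS. All mice then recovered for 4 weeks and were given an osmotic minipump under the skin for 7 days, filled with saline or with angiotensin II at 1.5 mg/kg per day together with PE at 50 mg/kg per day. The pair of agents is written AngII/PE below, and CBP in the files stands for carboplatin. Each of the 4 groups (PBS with saline, carboplatin with saline, PBS with AngII/PE, carboplatin with AngII/PE) is 1 library, made from the pooled hearts of 5 mice of both sexes, with 10000 sorted cells loaded. The sort kept CD64+ cells that were CD45+, CD11b+, Ly6G negative and Ly6C low, so neutrophils and Ly6C high monocytes were gated against. A group is a single library, so nothing could be tested against replicates: every interval below is a 95% interval for counting error alone, and each difference is one between libraries.

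Macrophages with this pair of genes are known from fatty tissue, atherosclerotic plaque, injured nerve and scarred organs, where they are often called lipid-associated macrophages. Spp1 encodes osteopontin, a secreted matrix phosphoprotein that cells bind through integrins, and Gpnmb encodes a transmembrane glycoprotein that is induced when lysosomes are under load. The programme that usually travels with them takes up, stores and digests lipid: Trem2 is a surface receptor for lipids and lipoproteins, Fabp5 carries fatty acids in the cytosol, Lpl hydrolyses triglycerides, and cathepsins such as Ctsd degrade protein in the lysosome. Digestion of this kind is switched on by factors of the TFEB and MITF family, which bind the E-box core CACGTG, and macrophage activation also runs through AP-1, which binds TGAGTCA.

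Both motifs were looked for in promoters, because Gpnmb chose the cells and Ctsd and Igf2r were among the genes highest in them. The sequences are RefSeq's for GRCm38.p6, the build of the deposited data, each written 5′ to 3′ on the gene's strand from 250 bases before the start of transcription to 30 after it. Capitals mark CACGTG in Ctsd and Igf2r, and TGACTCA, the reverse complement of TGAGTCA, in Gpnmb. The Gpnmb window is chr6:49036268-49036547 on the plus strand, the Ctsd window is chr7:142387798-142388077 on the minus strand, and the Igf2r window is chr17:12769677-12769956 on the minus strand.
Gpnmb: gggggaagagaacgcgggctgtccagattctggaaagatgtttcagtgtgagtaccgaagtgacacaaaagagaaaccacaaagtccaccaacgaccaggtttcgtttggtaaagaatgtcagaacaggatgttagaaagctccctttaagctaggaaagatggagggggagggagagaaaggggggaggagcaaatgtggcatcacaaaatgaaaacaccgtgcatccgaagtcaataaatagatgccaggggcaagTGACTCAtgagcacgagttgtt
Ctsd: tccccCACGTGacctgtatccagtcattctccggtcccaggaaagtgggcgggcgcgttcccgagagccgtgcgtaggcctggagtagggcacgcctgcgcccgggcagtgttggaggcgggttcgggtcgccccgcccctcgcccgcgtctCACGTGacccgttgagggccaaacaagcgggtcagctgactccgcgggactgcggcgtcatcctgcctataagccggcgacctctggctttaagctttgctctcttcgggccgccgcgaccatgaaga
Igf2r: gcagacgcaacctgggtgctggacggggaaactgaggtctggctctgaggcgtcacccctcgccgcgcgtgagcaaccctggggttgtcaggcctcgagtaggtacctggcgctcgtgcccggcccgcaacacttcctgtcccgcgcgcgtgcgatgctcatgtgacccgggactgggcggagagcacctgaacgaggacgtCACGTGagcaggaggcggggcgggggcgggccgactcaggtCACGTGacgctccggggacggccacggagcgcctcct

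The Gpnmb element begins 9 bases into the transcript. The 2 E-box cores of Ctsd begin 245 and 98 bases before the start, and those of Igf2r 48 and 7 bases before it. For Igf2r the start used here is not that of the GENCODE gene given below, which lies downstream of the whole window. Distances from that start would be larger. Of the 33 genes that were at least 2-fold higher in these cells in both AngII/PE libraries (described below), 26 had a promoter in the table, and CACGTG lay in 5 of them, 19.2%: Gyg, Ctsd, Slc27a1, Igf2r and Lonrf3. Of the 56 genes at least 2-fold lower, 42 had a promoter and 3 held the motif, 7.14%. Over all promoters in the table, searched in the 300-base windows on both strands, the share was 7.15% of 32851, and 8.09% of 27025 genes had a promoter with it. The TGAGTCA element was in 0 of the 26 higher genes, in 4 of the 42 lower genes (9.52%) in 5.20% of all promoters and in those of 5.95% of genes. The motifs and these promoters were picked after the values of the genes had been seen, and a match is only a stretch of letters.

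Nearly all of these cells came from hearts with the AngII/PE pump. The gate took 7 of 3251 C1q-positive macrophages in the PBS saline library, a share of 0.215% (exact Clopper-Pearson interval 0.0866% to 0.443%), and 6 of 2399 in the carboplatin saline library, 0.250% (0.0918% to 0.544%). It took 167 of 3157 in the PBS AngII/PE library, 5.29% (4.53% to 6.13%), and 237 of 5128 in the carboplatin AngII/PE library, 4.62% (4.06% to 5.23%). The 2 pump libraries thus held 404 of the 417 cells and the 2 saline libraries 13, and the intervals of the saline and pump shares were far apart. The share with AngII/PE was 24.6 times that with saline after PBS (interval 11.6 to 52.2) and 18.5 times after carboplatin (8.23 to 41.5). Between the 2 pump libraries, carboplatin over PBS gave a ratio of 0.874 (0.720 to 1.06), an interval that includes 1.

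The threshold is in raw UMIs, so deeper cells pass it more readily. The cells that passed held a median of 17327 UMIs in the PBS AngII/PE library and 15869 in the carboplatin AngII/PE library, against 12486 and 12563 in the other C1q-positive macrophages. With every cell thinned to 5000 UMIs, and 535 to 837 shallower C1q-positive macrophages per library left out, the shares were 0.157%, 0.332%, 2.73% and 2.32% in the group order above. The difference between saline and pump libraries stayed large at that depth: 17.4 times after PBS (6.35 to 47.4) and 7.00 times after carboplatin (3.08 to 15.9). Endothelial cells, which should lack both genes, were used for background RNA. None of 549, 592, 309 and 285 endothelial-marked cells passed the Spp1 and Gpnmb thresholds in the 4 libraries, which allows shares of up to 0.546%, 0.507%, 0.971% and 1.05% at their median depths of 7035, 7715, 10095 and 11188 UMIs. In each library 1 endothelial-marked cell held a Gpnmb UMI, and Spp1 was seen in 1.28%, 1.35%, 3.24% and 13.3% of them, so that share was higher in the pump libraries, most of all after carboplatin. The gated cells of the saline libraries held medians of 17 and 41.5 Spp1 UMIs and of 21 and 32.5 Gpnmb UMIs.

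Each library mixed female and male hearts, and the sexes could be read from the cells. A cell was called female with a UMI of Xist and none of 4 Y-linked genes, and male the other way round. In the PBS AngII/PE library 19 of 788 female-called macrophages passed the gate, 2.41% (1.46% to 3.74%), and 126 of 1813 male-called ones, 6.95% (5.82% to 8.22%). In the carboplatin AngII/PE library the shares were 70 of 2135, 3.28% (2.56% to 4.12%), and 132 of 2042, 6.46% (5.44% to 7.62%). The male share was the higher one in both, 2.88 times (1.79 to 4.64) and 1.97 times (1.49 to 2.62), and it was 3.05 and 2.39 times the female share after thinning. How many mice of each sex stood behind these cells is not given, so sex and single animals cannot be told apart. The mixture bears on the carboplatin comparison: female-called cells were 13.1% of the called Spp1 and Gpnmb cells after PBS and 34.7% after carboplatin, and 31.3% and 51.9% of the other called macrophages. Within female-called cells the carboplatin to PBS ratio of shares was 1.36 (0.824 to 2.24), and within male-called cells 0.930 (0.735 to 1.18). Neither interval excludes 1, and the direction of the pooled ratio was not kept in female-called cells. After thinning the ratios were 1.31 (0.571 to 3.00) in female-called and 1.02 (0.715 to 1.47) in male-called cells. At that depth the pooled direction was kept in neither sex, and both intervals include 1.

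**Figure D1:**
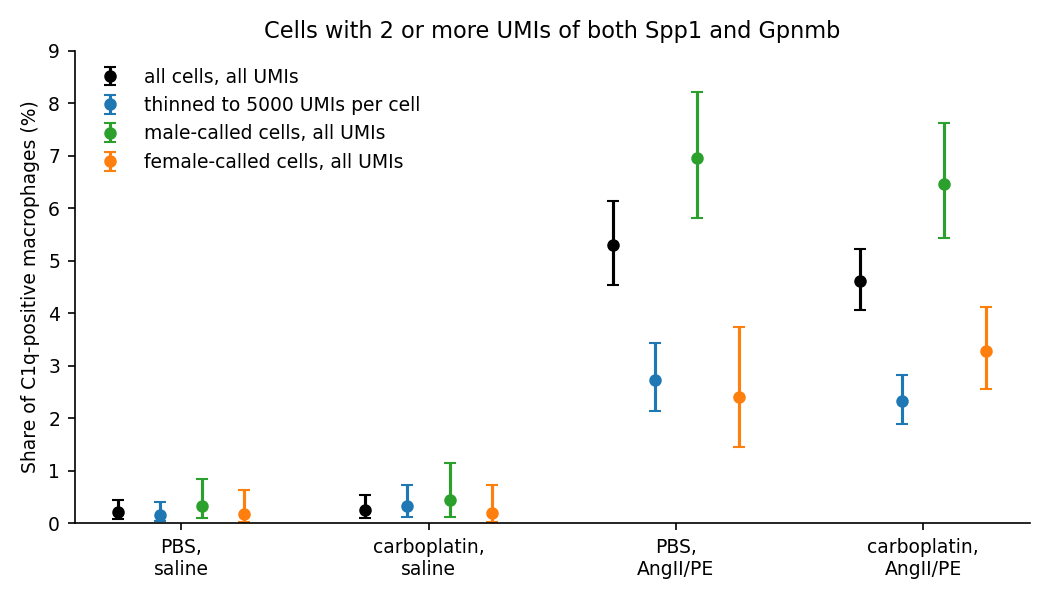
Share of C1q-positive macrophages (y axis, %) with 2 or more UMIs of both Spp1 and Gpnmb in the 4 libraries (x axis). Points are shares and bars exact 95% intervals for counting error, for all cells, for cells thinned to 5000 UMIs, and for male-called and female-called cells; the pump libraries reach 5.29% and 4.62% over all cells and the saline libraries 0.215% and 0.250%.

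Gpnmb was the scarcer of the 2 genes of the gate. In the PBS and carboplatin AngII/PE libraries 27.6% and 30.9% of C1q-positive macrophages held 2 or more Spp1 UMIs, whereas 7.86% and 6.30% held 2 or more of Gpnmb. Spp1 ran from 2 to 312 UMIs per gated cell with a median of 9 after PBS, and from 2 to 355 with a median of 13 after carboplatin. Gpnmb ran from 2 to 59 with a median of 6, and from 2 to 98 with a median of 5. At the edge of the rule, 26 and 52 gated cells held exactly 2 Gpnmb UMIs, and 78 and 104 macrophages with enough Spp1 stayed outside with 1. For Spp1, 20 and 22 cells held exactly 2 UMIs, and 30 and 27 macrophages with enough Gpnmb stayed outside with 1. These values chose the cells and are given as a description only.

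The label came with 8 marker genes: Spp1, Gpnmb, Fabp5, Adam8, Clec4d, Lgals3, Apoc2 and Adra1a. Spp1 and Gpnmb set the gate and check nothing. The other 6 were each higher in the gated cells than in the other C1q-positive macrophages of the same library in both AngII/PE libraries. The markers were chosen with earlier results of these data known, so these values describe the cells and do not check the label. UMIs were summed over the cells of each kind in each library and given as CPM, counts scaled to the total of their own sum. Clec4d, a C-type lectin receptor, was at 177 and 163 CPM in the gated cells (PBS first, carboplatin second, here and below) against 75.8 and 53.9 CPM in the others. Apoc2, the apolipoprotein that activates lipoprotein lipase, was at 118 and 94.0 CPM against 49.7 and 46.0, and the other 4 are described below. General macrophage genes were present too, with a summed level of the 10-gene list of 29837 and 34985 CPM against 25135 and 29074. That list includes C1qa, C1qb and C1qc, which the rule used to choose both kinds of cell, so the sum checks nothing. Of the 7 other genes of the list, 4 were higher in both libraries and 1 lower in both, none by 2-fold in both. The label of lipid-associated macrophages is used here for the genes and says nothing of lipid content, which was not measured.

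RNA of other cell types was low in these cells, with a few single-cell exceptions. Marker lists of 10 genes each summed to 219 and 260 CPM for endothelial cells (145 and 233 in other macrophages), 294 and 297 for fibroblasts (310 and 353), 180 and 76.3 for cardiomyocytes (210 and 188), 7.60 and 9.40 for mural cells (19.5 and 27.2), and 129 and 159 for B cells (323 and 314). Neutrophil markers summed to 457 and 243 CPM against 206 and 109, mostly S100a8 and S100a9, and the granule gene Ngp was at 0 in both libraries. Dendritic cell markers summed to 14.2 and 12.5 CPM against 56.9 and 37.998. Fabp4 was 106 and 196 CPM of the endothelial sums in the gated cells. It was left out when cells were marked as endothelial. The T and NK list stood at 74.2 and 61.6 CPM against 18.8 and 15.5, of which Il7r, the interleukin-7 receptor chain, was 73.2 and 60.9 CPM while Cd3g, Trbc2, Gzma and Cd8a were at 0 in both. The osteoclast list, relevant because Spp1 and Gpnmb are also osteoclast genes, summed to 159 and 176 CPM against 133 and 129, with the calcitonin receptor Calcr at 0. No cell barcode was shared between gated cells of different libraries.

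In the 2 pump libraries Fabp5, Igf2r and Airn headed the genes higher in the gated cells, and Mgl2, Rtn1 and Sirpb1a those lower in them. Of 6556 genes whose level averaged 20 CPM or more, 33 were 2-fold or more higher in the gated cells in both libraries, 0.503% of the genes compared, and 56 were 2-fold or more lower in both, 0.854%. The genes of the gate were left out of these counts. The PBS library alone gave 66 higher and 103 lower genes (1.01% and 1.57%), and the carboplatin library 42 and 71 (0.641% and 1.08%), so that the 33 shared genes were 50.0% and 78.6% of each list of higher genes and the 56 shared were 54.4% and 78.9% of each list of lower genes. Because the cells were chosen within each library by 2 genes of the same measurement, these counts describe the gated cells and test nothing.

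Fabp5, which ferries fatty acids to enzymes and nuclear receptors, stood highest. Its level was 605 CPM in the gated cells and 77.4 CPM in the other macrophages after PBS, and 616 against 76.0 CPM after carboplatin. That is 7.81-fold (interval 7.36 to 8.29) and 8.11-fold (7.71 to 8.52), nearly the same in the 2 libraries. A UMI of Fabp5 was found in 82.6% and 83.1% of gated cells and in 31.0% and 31.0% of the others. Endothelial-marked cells held it too, in 81.9% and 89.5%, so Fabp5 by itself does not mark these macrophages in this heart digest. Slc27a1, a fatty acid transport protein of the plasma membrane, was at 76.3 and 63.2 CPM against 21.3 and 19.2, 3.58-fold (3.07 to 4.16) and 3.30-fold (2.86 to 3.79). Slc6a8, the creatine transporter, was at 33.8 and 38.4 CPM against 9.31 and 9.14.

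The lysosomal protease Ctsd was at 3581 and 3744 CPM in the gated cells and at 1033 and 1243 CPM in the others. The difference was 3.47-fold (3.39 to 3.54) and 3.01-fold (2.96 to 3.07). Igf2r, the mannose 6-phosphate receptor that delivers newly made hydrolases such as cathepsin D to the lysosome, was at 48.0 and 30.6 CPM against 6.64 and 4.95, 7.23-fold (5.83 to 8.94) and 6.18-fold (4.95 to 7.67). A UMI of it was seen in 44.9% and 29.1% of gated cells, in 5.89% and 4.87% of other macrophages and in 44.7% and 52.3% of endothelial-marked cells. Airn, the long noncoding RNA transcribed across Igf2r from the other strand, was at 167 and 108 CPM against 22.3 and 21.6. Igf2r lies at chr17:12682406-12769664 on the minus strand and Airn at chr17:12741311-12860136 on the plus strand (GENCODE, GRCm38), so they overlap. The sources used here do not give whether the counting used the strand, and reads from the shared stretch cannot be told apart without it. The summed endothelial markers were at 219 and 260 CPM in the gated cells and 145 and 233 CPM in the others. Of the gated sums 106 and 196 CPM were Fabp4, which is also in the lipid-associated gene list. Much of that lay in 1 cell per library, and the sums without Fabp4 were not compared. The part of endothelial RNA in the Igf2r, Airn and Fabp5 levels was not tested.

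Several of the highest genes encode surface or secreted proteins. Adam8, a membrane metalloproteinase, was at 139 and 91.4 CPM against 34.0 and 27.0, 4.10-fold (3.66 to 4.59) and 3.38-fold (3.00 to 3.80). Anpep, the aminopeptidase CD13, was at 71.1 and 54.3 CPM against 12.01 and 10.99, 5.92-fold (5.00 to 7.00) and 4.94-fold (4.21 to 5.78). Lgals3, the glycan-binding galectin-3, was at 1998 and 1872 CPM against 669 and 658, 2.98-fold (2.90 to 3.07) and 2.84-fold (2.77 to 2.92). Fam20c, the secretory pathway kinase that phosphorylates osteopontin among other proteins, was at 74.6 and 62.2 CPM against 24.4 and 22.3. Chil3, a chitinase-like lectin, was at 29.3 and 42.1 CPM against 10.4 and 13.4. The other genes among the 15 highest were Syngr1, a vesicle membrane protein (231 and 196 CPM against 41.3 and 44.9), Mgst1, a membrane glutathione transferase (112 and 77.6 against 28.2 and 27.7), Ankrd33b and Ahnak2, with log2 ratios between 1.49 and 2.48.

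The 10 lowest genes included Mgl2 at their head and 4 genes of the MHC class II list. Mgl2, a lectin of alternatively activated and dermal phagocytes, was at 6.90 and 7.31 CPM in the gated cells and at 89.5 and 79.9 CPM in the others, 12.96-fold lower (8.38 to 21.2) and 10.9-fold lower (7.55 to 16.5). Ciita, the coactivator that switches on MHC class II genes, was at 17.3 and 19.1 CPM against 102 and 79.5, 5.94-fold lower (4.49 to 8.01) and 4.17-fold lower (3.31 to 5.32). Cd74, the invariant chain that guides class II molecules through the cell, was at 2806 and 2317 CPM against 10873 and 9058, 3.87-fold lower (3.79 to 3.96) and 3.91-fold lower (3.83 to 3.99). H2-Eb1 and H2-Ab1, beta chains of the class II molecules, had log2 ratios of -1.93 and -2.05 and of -1.87 and -1.80. Rtn1, a reticulon of the endoplasmic reticulum, was at 6.56 and 6.27 CPM against 56.6 and 29.2. Sirpb1a, Bank1, Stxbp6 and the heat shock gene Hspa1b completed the 10 lowest, with log2 ratios between -1.75 and -2.38.

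**Figure D2:**
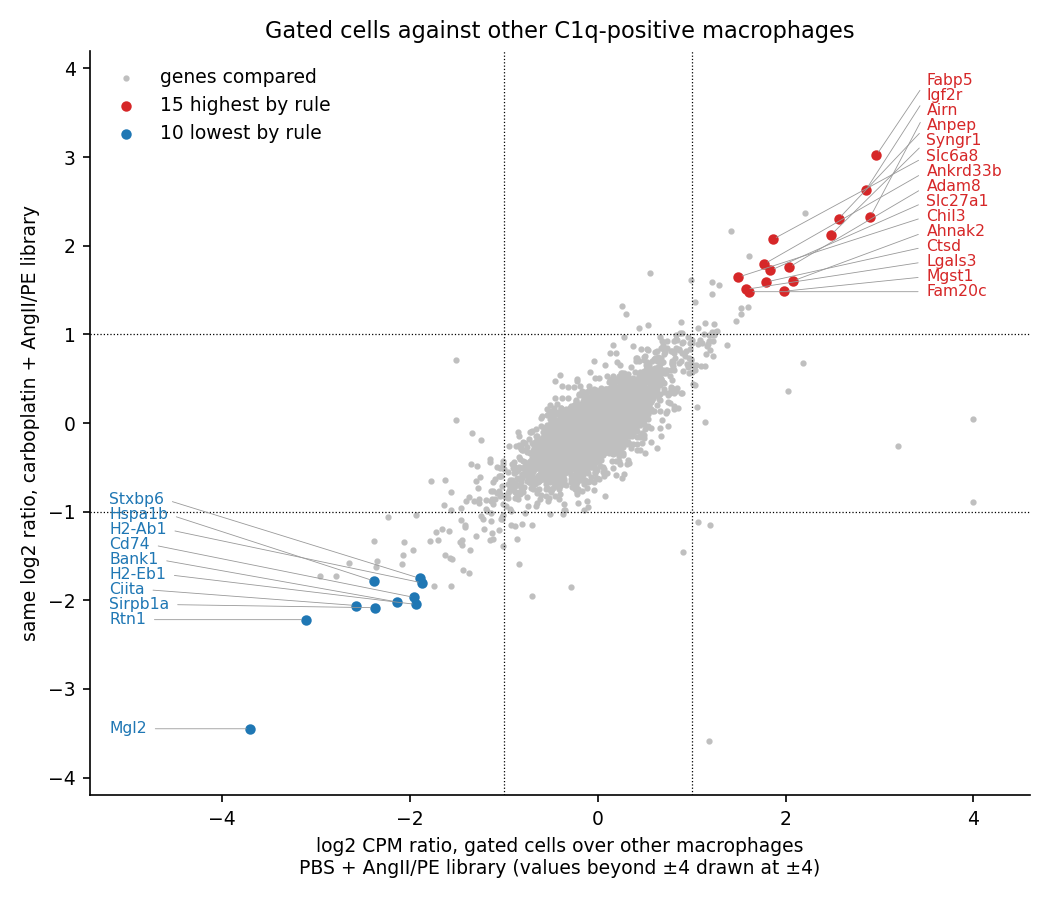
Each point is 1 of the 6556 genes compared, placed by its log2 CPM ratio of gated cells over other C1q-positive macrophages in the PBS AngII/PE library (x axis) and in the carboplatin AngII/PE library (y axis). The dotted lines mark 2-fold; the 15 highest genes (Fabp5 at 2.97 and 3.02) and the 10 lowest (Mgl2 at -3.70 and -3.45) by the lesser of the 2 ratios are named.

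The programme lists showed which parts of macrophage biology went with the gate. The median gene of all those compared had a log2 ratio of -0.04 and -0.05 in the 2 libraries. The lists, like the markers, were chosen with earlier results of these data known. Of all genes compared, 0.503% were 2-fold higher in both libraries and 0.854% were 2-fold lower in both. The share of all genes that were merely higher, or lower, in both libraries is not given here. Counts of list genes by direction alone therefore have no background beside them, and describe the lists only. Of the lipid-associated list, 25 genes outside the gate were measured, and all 25 were higher in the gated cells in both libraries. Their medians were 1.18 and 0.99, and 9 were 2-fold higher in both: Fabp5, Lpl, Lgals3, Ctsd, Apoc2, Adam8, Clec4d, Vat1 and Syngr1. Lpl, the triglyceride lipase, was at 209 and 230 CPM against 68.8 and 92.8. Trem2 was at 1164 and 1210 CPM against 493 and 607, and Apoe, the lipoprotein component, at 35890 and 37286 against 20047 and 19452. Genes of cholesterol handling and efflux stood nearer to the rest: 10 of 20 were higher in both libraries, none by 2-fold, with medians of 0.18 and 0.06. Npc1, which exports cholesterol from the lysosome, and Soat1, which esterifies it, had log2 ratios of 0.53 and 0.63 and of 0.44 and 0.70.

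Among 30 lysosomal genes that are not in the lipid list, 26 were higher in both libraries and 1 lower in both, with medians of 0.38 and 0.36 and no gene at 2-fold in both. Fnip2, a partner of folliculin in lysosomal nutrient signalling, led them at 289 and 271 CPM against 144 and 142. Atp6v0c, a subunit of the proton pump, was at 1325 and 1287 CPM against 847 and 893. The iron and haem list was higher in both for 12 of 14 genes with small medians of 0.27 and 0.24. Ndrg1, a hypoxia and lipid trafficking gene, was the 1 gene of the glycolysis and hypoxia list above 2-fold, with log2 ratios of 1.14 and 1.13. Igf1, the growth factor, was 2-fold higher, at 456 and 402 CPM against 193 and 185.

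All 7 MHC class II genes measured were 2-fold or more lower in both libraries, with medians of -1.87 and -1.84, against 0.854% of all genes. Interferon-induced genes were lower in both libraries for 25 of 26, with medians of -0.57 and -0.39 and none at 2-fold in both. Immediate-early and heat shock genes were lower in both for 20 of 28, and Hspa1a and Hspa1b passed 2-fold. The lists for recruited and for resident heart macrophages were split. Of 13 monocyte-derived genes 5 were higher in both libraries and 5 lower in both, and of 13 resident genes 5 were higher and 7 lower, with summed levels of the resident list of 7914 and 8502 CPM in the gated cells and 7045 and 8191 CPM in the others. Ccr2, the chemokine receptor of recently recruited monocyte-derived cells, was at 62.1 and 87.8 CPM against 264 and 264, with log2 ratios of -2.09 and -1.59. Of the resident genes Cbr2 and Ltc4s were 2-fold lower and Igf1 2-fold higher. In the monocyte list, S100a8 and S100a9 were more than 2-fold higher, but 1 cell per library held 71% to 98% of their UMIs, so those values belong to single cells.

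**Figure D3:**
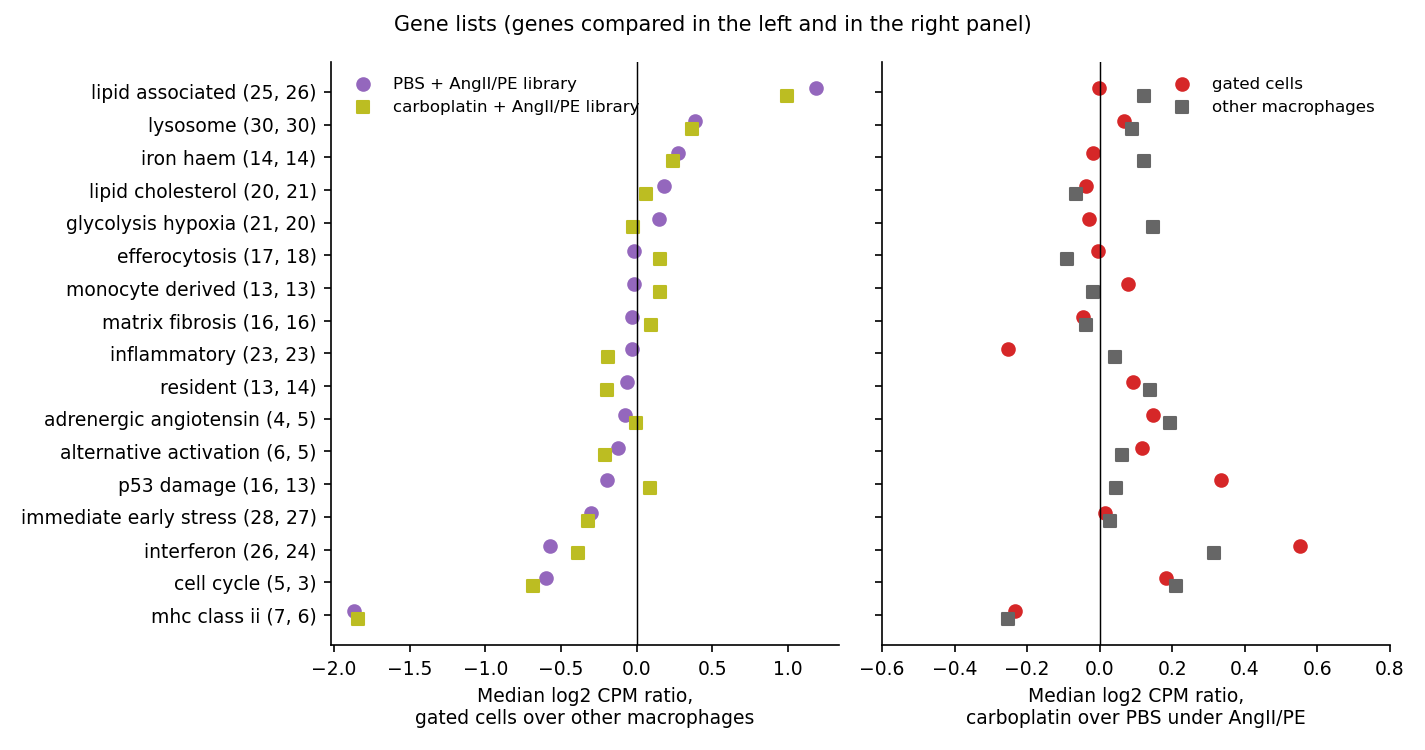
Median log2 CPM ratio of 17 gene lists (rows; in brackets the genes compared in the left and in the right panel). Left, gated cells over other macrophages in the 2 pump libraries: the lipid-associated list lies at 1.18 and 0.99 and MHC class II at -1.87 and -1.84; right, carboplatin over PBS under AngII/PE in gated cells and in other macrophages, where the interferon list lies at 0.55 and 0.32.

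Levels were also set out by steps of Spp1 and Gpnmb UMIs per cell. The steps use the genes that chose the cells, and each level is a sum over cells. A gradual change within cells therefore cannot be told from a changing mixture of cells. When C1q-positive macrophages were ordered from no UMI of either gene to 10 or more UMIs of both, Fabp5 was at 54.3 CPM in the cells with neither gene, 85.9 with Spp1 alone, 402 in gated cells with at least 2 of each but fewer than 4 of one, and 1051 in those with 10 or more of both in the PBS AngII/PE library. The same steps in the carboplatin library were 60.1, 85.3, 306 and 1486 CPM. Ctsd went from 823 to 5641 CPM and from 1012 to 6118 CPM between the ends, and Trem2 from 408 to 1559 and from 520 to 1566. Cells with enough Spp1 and 1 Gpnmb UMI, just outside the gate, already held Ctsd at 2050 and 2441 CPM and Fabp5 at 268 and 156. Apoe differed mainly between cells without and with Gpnmb: it was at 18535 and 17683 CPM with neither gene, 20251 and 20360 with Spp1 alone, 31048 and 31102 with 1 Gpnmb UMI, and 36567 and 38205 at the top.

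MHC class II went the other way. H2-Aa, the class II alpha chain, was at 4124 and 3607 CPM in cells with neither gene and at 925 and 624 CPM in cells with 10 or more UMIs of both. Mgl2 went from 104 and 107 CPM to 1.52 and 1.22, and Ccr2 from 284 and 264 to 64.0 and 41.5. The order was not strictly kept at each step: H2-Aa in the carboplatin library was 1098 CPM with 1 Gpnmb UMI and 2140 CPM with 2 or more of Gpnmb but little Spp1. The top step held 34 and 43 cells with medians of 19591 and 18966 UMIs, against 1760 and 2525 cells with medians of 10597 and 11107 UMIs at the bottom, so depth moved with the steps; CPM divides by each step's own total, and the part of depth was not tested there. The ratio of gated to other cells was recomputed for 28 genes, with the other macrophages drawn to the gated cells' distribution of UMIs per cell. The sign of each ratio stayed as it was in both libraries. These genes were named for large ratios or as markers, so a kept sign does not measure the part of depth.

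**Figure D4:**
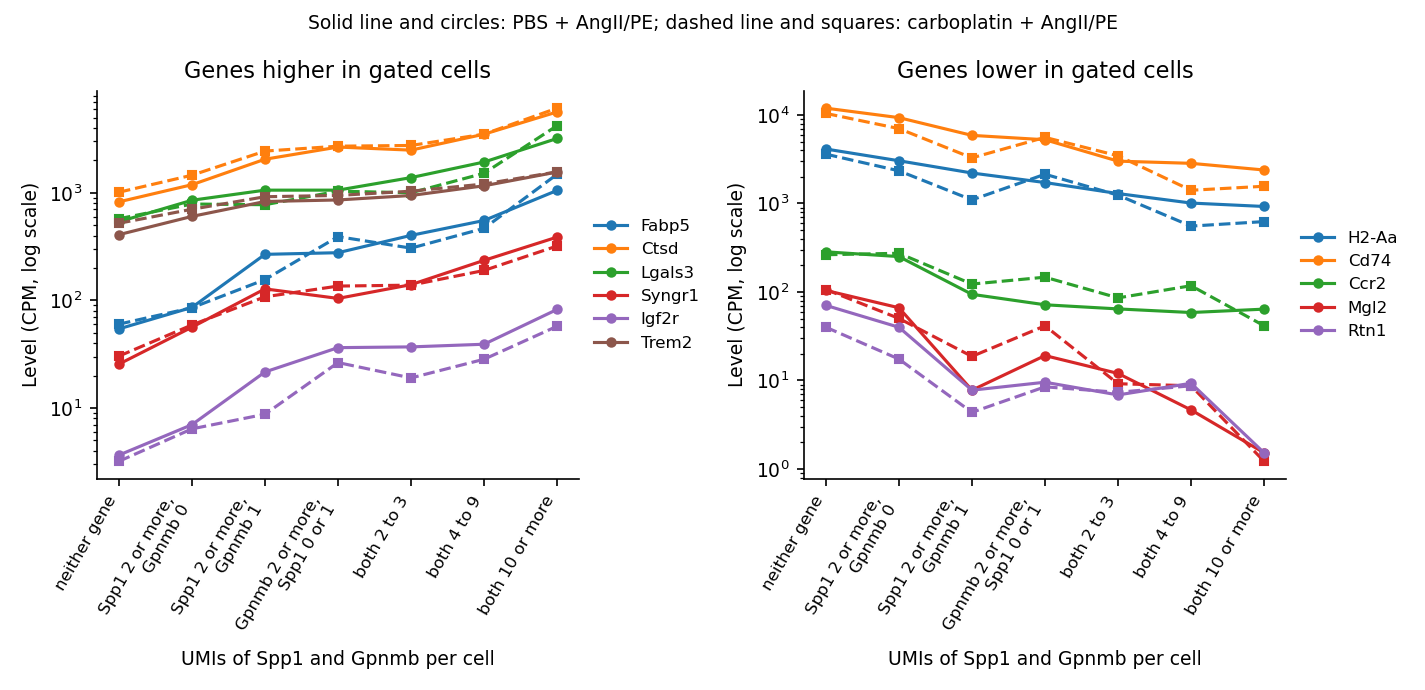
Level in CPM (y axis, log scale) of 6 genes higher and 5 genes lower in gated cells, across C1q-positive macrophages ordered by their UMIs of Spp1 and Gpnmb (x axis), in the PBS (solid) and carboplatin (dashed) AngII/PE libraries. Fabp5 lies at 54.3 and 60.1 CPM at the left end and at 1051 and 1486 at the right, and H2-Aa at 4124 and 3607 and then at 925 and 624; a value of 0 is not drawn.

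Adra1a, which encodes the alpha-1A adrenergic receptor, had the highest ratio of the 8 markers after Gpnmb. It was at 51.4 CPM in gated cells against 3.02 in the others after PBS, 17.02-fold (13.2 to 21.9), and at 18.8 against 1.72 CPM after carboplatin, 10.9-fold (7.99 to 14.9). Its mean lies under 20 CPM, so it is not in the counts above. The 149 and 72 UMIs came from 40 of 167 and 27 of 237 gated cells, 24.0% and 11.4%, whereas 1.67% and 0.920% of other macrophages held a UMI and no endothelial-marked cell did. After thinning to 5000 UMIs the shares of gated cells were 14.7% and 6.87%. Across the Spp1 and Gpnmb steps it was at 128 and 56.2 CPM in cells with 10 or more UMIs of both genes. In cells with neither gene it was at 1.25 and 0.358 CPM. The steps between did not rise evenly. Gated cells in the step of 2 to 3 UMIs had 28.3 and 7.96 CPM, and those in the step of 4 to 9 had 29.8 and 9.44. Macrophages outside the gate with 2 or more Gpnmb UMIs and 0 or 1 of Spp1 had 15.3 and 43.3 CPM. In the carboplatin library Adra1a was thus not particular to the gated cells.

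Adra1a is also a gene of heart muscle, so cardiomyocyte RNA was set beside it. Gated cells with Adra1a held a median of 0.397 and 0 cardiomyocyte-marker UMIs per 10000, and those without it 0.474 and 0. The 5 cardiomyocyte-marked barcodes of the PBS pump library held no Adra1a UMI. At a median of 3336 UMIs they were too few and shallow for that absence to be informative. The carboplatin pump library had no such barcode. Called sexes were mixed in both libraries, with 4 female-called and 31 male-called Adra1a cells after PBS and 6 and 17 after carboplatin. None of the 13 gated cells of the saline libraries held a UMI, which allows up to 26.4 and 21.1 CPM at their depth. Agtr1a, the main angiotensin II receptor, was at 0 in the gated cells of both pump libraries.

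The 13 gated cells of the saline libraries are too few to compare. For the genes of the gate, Spp1 was at 3853 CPM (Poisson interval 3501 to 4231) in the PBS library and 3099 (2817 to 3402) in the carboplatin library. These levels rest mostly on 1 cell per library, which held 328 of 438 and 239 of 441 Spp1 UMIs. The intervals leave out such spread between cells. Gpnmb stood at 1126 (939 to 1339) and 1335 (1152 to 1539). Fabp5 was at 1267 and 1659 CPM, Lgals3 at 3721 and 2453, and Ctsd at 3563 and 6465. H2-Aa was at 3633 and 5348 CPM and Ccr2 at 457 and 288, higher than in the gated cells of the pump libraries. For MHC class II this was not particular to the gated cells. The list summed to 37534 and 48759 CPM in the other macrophages of the saline libraries, against 21430 and 17909 in those of the pump libraries. In the gated cells of the saline libraries it summed to 17277 and 26396 CPM, below their neighbours. Adam8 was at 185 CPM (114 to 282) and 21.1 CPM (4.35 to 61.6), from 21 UMIs in 5 of 7 cells and 3 UMIs in 2 of 6.

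Carboplatin against PBS was then compared within the gated cells of the 2 pump libraries. Summed counts were 2896639 UMIs over 167 cells and 3828071 over 237 cells. Of 6470 genes whose level averaged 20 CPM or more, 72 were 1.5-fold or more higher after carboplatin, 1.11% of the genes compared, and 123 were 1.5-fold or more lower, 1.90%. In the other C1q-positive macrophages, whose sums held 37064351 and 61055543 UMIs, the same fold was reached by 27 genes (0.408%) and 45 genes (0.680%). A fixed fold is passed more often by counting error in smaller sums, so these counts do not compare the 2 kinds of cell. The median gene of all those compared had a log2 ratio of -0.005 in the gated cells and -0.0007 in the others. Of the gated cells' genes, 10 of the 72 and 18 of the 123 also passed in the others. In both called sexes 61 and 89 had the same direction. Those sexes are subsets of the cells that chose the genes, so a shared direction is partly built in and is no replication. With 1 library for each treatment, treatment, library and the mice pooled in it cannot be told apart.

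The lipid-associated list was split evenly after carboplatin, while of 6 measured genes of the shorter marker list 5 were lower and 1 higher, with a median log2 ratio of -0.22 in the gated cells and also in the other macrophages. Of 26 measured genes of the list 13 were higher and 13 lower after carboplatin, with a median log2 ratio of -0.00, and 3 passed 1.5-fold. Atp6v0d2, a proton pump subunit of osteoclasts and activated macrophages, was at 20.4 CPM after PBS and 38.9 after carboplatin. Fabp4 was at 106 and 196 CPM, with 1 cell in each library holding 50% and 65% of it. Adam8 was at 139 and 91.4 CPM, 1.53-fold lower (1.32 to 1.77), with a log2 ratio of -0.61 against -0.33 in the other macrophages. Fabp5, Ctsd, Trem2 and Lgals3 differed by log2 ratios of 0.03, 0.06, 0.06 and -0.09. None of 30 lysosomal genes and none of 21 cholesterol genes passed 1.5-fold. Over all genes 1.11% passed higher and 1.90% lower, so lists of this size with none passing lie near that share and say little. Spp1, a gene of the gate, was at 1137 and 1782 CPM, and Gpnmb at 554 and 488. Adra1a was 2.73-fold lower after carboplatin (2.05 to 3.68), with log2 ratios of -2.16 (female-called cells) and -1.35 (male-called cells), and of -0.81 in the other macrophages.

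Interferon-induced genes were the list with the most members past 1.5-fold after carboplatin. Of 24 measured, 23 were higher and 12 were 1.5-fold or more higher, with none 1.5-fold lower, against a background of 1.11%. Among them were Ifit1, Isg15, Irf7, Rsad2, Rtp4, Ifi27l2a and Ly6e, of which Ifi27l2a had a log2 ratio of 0.76 over all gated cells but -0.062 in female-called ones. The median log2 ratio was 0.55 in the gated cells and 0.32 in the other macrophages, where 2 genes passed. The female-called gated cells gave 0.90 and the male-called ones 0.74, and 11 of the 12 genes still passed without the cell that held most UMIs of each gene. Irf7, the factor that amplifies the interferon response, was at 77.0 CPM after PBS and 131 after carboplatin, 1.70-fold (1.45 to 2.003). Rtp4, an interferon-induced regulator, was at 56.6 and 105 CPM, 1.85-fold (1.54 to 2.24). Ly6e was at 374 and 663 CPM, 1.77-fold (1.65 to 1.91). Rsad2, the antiviral enzyme viperin, was at 12.4 and 59.8 CPM, with 42% of its carboplatin UMIs in 1 cell. In neither pump library did the median interferon gene of the gated cells reach the level of the other macrophages (medians of -0.57 and -0.39, above).

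The highest genes after carboplatin included others of that kind. Ly6a, an interferon-inducible surface protein, was at 31.4 and 87.8 CPM in the gated cells, 2.79-fold (2.21 to 3.56), and its log2 ratio was 1.48 there and 1.41 in the other macrophages. H2-Q7, a nonclassical MHC class I gene with close relatives that can share reads, was at 37.98 and 65.8 CPM. Reps2, an endocytosis adaptor, was at 62.5 and 118 CPM, 1.88-fold (1.58 to 2.25). Fcrls, an Fc receptor-like scavenger protein best known from microglia, was at 410 and 746 CPM, 1.82-fold (1.70 to 1.95), with a log2 ratio of 0.86 against 0.44 in the others. Gdf15, a stress cytokine and p53 target, was at 75.3 and 130 CPM, 1.73-fold (1.47 to 2.04), with log2 ratios of 2.33 (female-called cells) and 0.30 (male-called cells). Folr2, a resident macrophage marker, was at 37.3 and 63.2 CPM, and its direction was the opposite in female-called cells, with a log2 ratio of -0.30.

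Among p53 and DNA damage genes, 10 of 13 were higher after carboplatin, and 2 of the 13, Bbc3 and Gdf15, passed 1.5-fold, against 1.11% of all genes. The list's median was 0.33 in the gated cells and 0.05 in the others. Bbc3, the cell death gene Puma, was at 21.1 and 32.9 CPM, and Cdkn1a, the cell cycle inhibitor p21, at 189 and 254. Without the top cell of each gene 1 gene of the list passed. Of 23 inflammatory genes, 6 were 1.5-fold or more lower and none higher, against 1.90%: Il1b, Nlrp3, Cxcl1, Cxcl9, Ccl5 and Tnfaip3. Il1b, the inflammasome cytokine, was at 228.5 and 140.5 CPM, with a log2 ratio of 1.46 (female-called cells) and -0.72 (male-called cells). Nlrp3, the inflammasome sensor, was at 91.1 and 53.6 CPM and was lower in both called sexes. The list's median was -0.25 over all gated cells but 0.07 and -0.08 within female-called and male-called cells, and 0.04 in the other macrophages. Without the top cell of each gene the inflammatory list had 2 genes 1.5-fold higher and 5 lower, with a median of -0.12. Female-called cells gave 6 higher and 3 lower, and male-called cells 3 higher and 6 lower. One cell held 92% of the Cxcl9 UMIs after PBS.

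MHC class II had opposite signs in the called sexes. The list's median log2 ratio after carboplatin was -0.23 over all gated cells and -0.25 in the other macrophages, but 0.79 for female-called gated cells and -0.90 for male-called ones. Cd74 in female-called gated cells was at 2118 CPM in the PBS library and 3669 in the carboplatin library. Male-called gated cells had 2288 and 1280 CPM. Only 19 female-called cells stood behind the PBS values, and the difference between the sexes was not tested.

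Of the 10 lowest genes after carboplatin, several rested on 1 cell. Hba-a1 and Hba-a2, the haemoglobin alpha genes, had 589 and 397 UMIs after PBS, 99% of each in 1 cell. Without the cell with most UMIs of each gene, the log2 ratio of Hba-a2 turned from -5.71 to 1.01. Des, the muscle filament desmin, and Tpm1, tropomyosin, had 65% and 50% of their PBS UMIs in 1 cell. Ccl5 had 56% in 1 cell. The values of Klf9 were spread over cells: this glucocorticoid-responsive transcription factor was at 85.3 and 33.4 CPM, 2.55-fold lower (2.05 to 3.18), and was seen in 101 of 167 cells after PBS and 85 of 237 after carboplatin. Its log2 ratio was -1.10 and -1.36 for the called sexes, female first, and -0.68 in the other macrophages. Nlrp1b, an inflammasome sensor that varies between mouse strains, was at 85.6 and 36.8 CPM in the gated cells, and its log2 ratio of -1.22 was near the -1.12 of the other macrophages. Fhit, Dus2 and Cradd were at 35.5, 34.2 and 42.6 CPM after carboplatin and at 75.6, 70.4 and 86.0 after PBS.

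**Figure D5:**
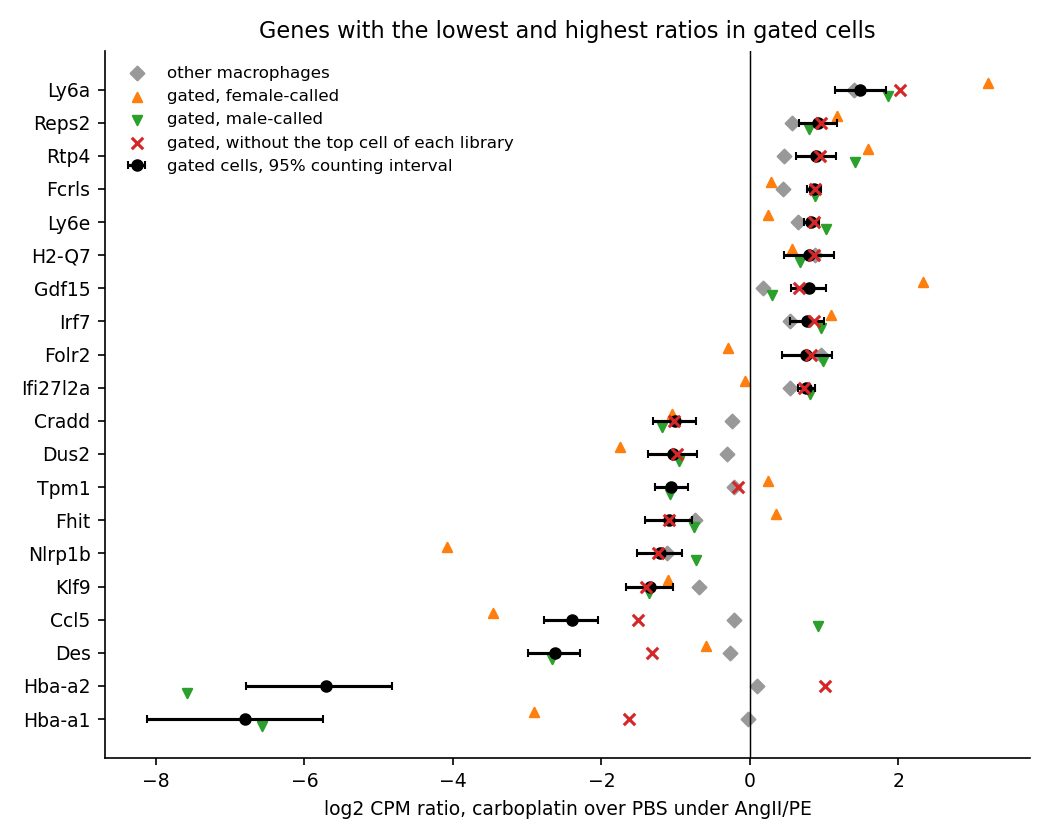
Log2 CPM ratio of carboplatin over PBS under AngII/PE (x axis) for the 10 highest and 10 lowest genes in gated cells (rows). Black points carry 95% counting intervals; diamonds are the other macrophages, triangles the female-called and male-called gated cells, and crosses the values without the top cell, which move Hba-a2 from -5.71 to 1.01 and leave Klf9 near its value of -1.35.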

How the data were processed

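Cells were profiled with 10x droplet RNA sequencing, 1 library per group. Per the file headers, the matrices of UMI counts the authors deposited were made with Cell Ranger 7.1.0; per the submitters' processing notes Seurat 4 was used, and the build is GRCm38. The labels name Cell Ranger V3 instead. The submitters' design text states 38066 barcodes and 17438 cells after the filters, against 27968 and 17312 here; the difference was not resolved. The matrices hold 32285 genes and 27968 barcodes, with 62943457 to 95752612 UMIs per library. The filters and the gate are given above. No doublet caller was run. A planned filter on 3 or more UMIs of other cell types' markers removed 94.6% and 90.7% of the gated cells of the pump libraries and 83.8% and 86.0% of the others, so it does not separate doublets; a filter on 20 or more such UMIs per 10000 was chosen after seeing the data and marked 4 and 3 gated cells.

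Counts were summed per library and cell class and given as CPM, with exact binomial intervals for ratios and Katz intervals for ratios of shares. All intervals are at 95%. Genes needed a mean of 20 CPM. Named genes are the 15 highest and 10 lowest by the lesser of the 2 log2 ratios, the 10 highest and 10 lowest after carboplatin with a mean of 50 CPM, and up to 4 per list; Apoe, Lpl, Il1b, Il7r and Cdkn1a were named after their values were seen. The members and lists were chosen with earlier results of these data known. The summing was tested on simulated data. Python 3.11.15, numpy 2.4.6, scipy 1.17.1, pandas 2.3.3 and matplotlib 3.10.9 were used. Leaving out the top cell of each gene was also chosen after seeing the data.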

Additional observations from a re-analysis of the deposited data

Results flagged for a closer look

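Some barcodes outside the quality filters passed the C1q, Spp1 and Gpnmb thresholds and are in none of the comparisons: 7 in the PBS saline library, 3 in the carboplatin saline library, 33 in the PBS AngII/PE library and 58 in the carboplatin AngII/PE library. Those of the carboplatin saline library exceeded the limit of 30000 UMIs. In the PBS and carboplatin AngII/PE libraries 28 and 48 exceeded it, and 5 and 10 exceeded the mitochondrial limit. In gated cells under AngII/PE the log2 ratio of carboplatin over PBS for Ccl5, a T cell and macrophage chemokine, was -3.46 (female-called cells) and 0.92 (male-called cells), and the difference was not tested. The median of the MHC class II list was 0.79 for female-called gated cells and -0.90 for male-called ones, and that difference was not tested either.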

How the results depend on the processing

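No paired analysis was possible because each group has 1 library. The cause of each difference below was not tested beyond what each setting does by construction. The shares of gated cells in the PBS and carboplatin AngII/PE libraries (5.29% and 4.62%) were 3.86% and 3.47% with the gate set per 10000 UMIs, 2.73% and 2.32% after thinning, 9.66% and 7.86% at 1 UMI, 3.07% and 2.54% at 4 UMIs, 6.34% and 5.46% with a mitochondrial share under 5%, 2.41% and 3.28% in female-called cells, and 6.95% and 6.46% in male-called cells. The ratio of carboplatin to PBS, 0.874, was reversed in female-called cells, at 1.36.

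Genes higher and lower in gated cells (33 and 56) numbered 64 and 97 after thinning, 20 and 35 at 1 UMI, 56 and 96 at 10 CPM, 19 and 22 at 50 CPM, with 51 higher under the per-10000 gate and 92 lower at 4 UMIs. Genes higher and lower after carboplatin (72 and 123) numbered 734 and 661 after thinning, 148 and 190 at 4 UMIs, 683 and 827 in female-called cells, 173 and 249 at 10 CPM and 26 and 38 at 50 CPM, with 155 higher under the per-10000 gate, 139 higher in male-called cells, 74 lower at 1 UMI and 81 lower with 5 CPM added. The planned marker filter left 9 and 22 gated cells, shares of 0%, 0%, 1.82% and 3.11%, a ratio of 1.71, 70 and 166 genes, and 1540 and 1967 genes after carboplatin, with log2 ratios of 1.23 for Cradd, 0.23 for Dus2, 0.33 for Fhit and 1.37 for Tpm1. Hba-a2 stood at 1.35 under the per-10000 gate, 0.98 at 4 UMIs and 1.01 without the top cell. In female-called cells Fhit was at 0.35, Folr2 at -0.30, Ifi27l2a at -0.062 and Tpm1 at 0.25, and in male-called cells Ccl5 was at 0.92. The ratios of 28 genes between gated and other cells kept their sign in both libraries in each of 18 settings that gave a value. For carboplatin over PBS those of 14 of 26 genes did so. The 28 genes were named for large ratios or as markers, so a kept sign says little. Sizes moved more: the log2 ratio of Adam8 in the carboplatin library, 1.76, ran from 0.135 to 2.25.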
